A study of Mus musculus with 12 samples.

Results

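Growth factors that synovial macrophages can secrete were followed through 9 genes, *Igf1*, *Tgfb1*, *Pdgfa*, *Pdgfb*, *Pdgfc*, *Hbegf*, *Osm*, *Gdf15* and *Vegfb*. They were taken by symbol from the 26699 genes of the count files. All 9 passed the filter on low counts, among 11927 genes that did. The question was how much of each transcript the macrophage subsets of the joint held, and whether the neuropeptide CGRP changed it.

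Synovium, the soft tissue that lines the joint, was dissected from wild-type C57BL/6 mice and kept in culture as an explant. Explants received 100 nM CGRP (calcitonin gene-related peptide, released by pain-sensing nerve endings) for 4 h or no CGRP (control), and MHC class II-positive cells were then sorted for bulk RNA sequencing. Cells without surface CD11c are called IAIE and cells that carry CD11c are called CD11c, after the sample titles. Each of the 4 groups, IAIE control, IAIE CGRP, CD11c control and CD11c CGRP, had 3 libraries, 12 in all, and no group carried a mutation or transgene. The labels do not state the age or sex behind a library, nor whether replicates came from separate mice, so p-values measure the spread between libraries, which may be technical. CGRP reached the whole explant before sorting, so the values show sorted cells that had shared the tissue with stromal cells and nerves.

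Tissue macrophages send signals to the fibroblasts, vessels and nerves around them. Their platelet-derived growth factors drive growth and migration of fibroblasts and mural cells, insulin-like growth factor 1 supports growth and survival, and transforming growth factor β1 steers matrix production but is secreted in a latent form that must be released. Oncostatin M is a cytokine of the interleukin-6 family that acts strongly on joint fibroblasts, and HB-EGF is a membrane-anchored ligand of the EGF receptor that has been described in macrophages of inflamed joints.

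Library totals lay between 2127191 and 5649698 counts, so that 3 counts, the floor used here, amounted to 0.534 to 1.34 CPM (counts scaled to the TMM-adjusted library total), a floor that covers counting error only. Replicates of a group had Spearman correlations of 0.934 to 0.968 across genes. The sort was visible in *Itgax*, which encodes CD11c, at 6.19 ± 4.76 CPM in IAIE control but 237 ± 29.0 CPM in CD11c control (SD, n = 3), and in *H2-Ab1*, an MHC class II chain, with 3896 ± 387 and 10590 ± 886 CPM. Macrophage markers (8 genes, among them *Adgre1* and *Csf1r*) summed to 7850 to 10000 CPM in IAIE control, 6700 to 7870 CPM in IAIE CGRP, 6390 to 8200 CPM in CD11c control and 4350 to 5260 CPM in CD11c CGRP. CD11c libraries also held more dendritic cell markers in sum, 634 to 774 CPM over 7 genes against 89.2 to 173 CPM in IAIE libraries. Most of it was *Ccr7* and *Cd209a*, with means of 240 and 297.5 CPM in CD11c control and 576 and 79.3 CPM in CD11c CGRP. *Zbtb46*, *Flt3* and *Dpp4* had higher means in CD11c cells in both conditions. *Xcr1* was level in the controls (12.2 CPM in IAIE and 13.1 CPM in CD11c cells) and had the lower mean in CD11c cells with CGRP. *Clec9a* was at or under the floor in both CGRP groups.

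The transcripts lie on different chromosomes of the mouse genome (mm10, GENCODE M21 gene bounds). *Osm* was placed at chr11:4236420-4241026, *Gdf15* at chr8:70629393-70632456 and *Igf1* at chr10:87858265-87937042. *Tgfb1* lies at chr7:25687002-25705077 and *Vegfb* at chr19:6982473-6987651. The PDGF genes lie at chr5:138976014-138997370 (*Pdgfa*), chr15:79995874-80014977 (*Pdgfb*) and chr3:81036416-81214040 (*Pdgfc*). Counts are over whole genes, exons and UTRs together. Only *Pdgfa* shares much of its exonic sequence with another gene, 26.1% of its exonic bases lying opposite *6330403L08Rik*, and without a stated strand setting the reads of such a pair may not be told apart.

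RefSeq promoter windows (GRCm38.p6) were found for 6 of the 9 genes. The 250 bases before the transcription start are printed for the 4 genes whose start equals the GENCODE gene start with no annotated exon upstream. They are shown because *Pdgfc*, *Gdf15* and *Vegfb* were all lower in CD11c cells whereas *Tgfb1* did not pass that test. Capitals mark the GC box GGGCGG on either strand, which 32.7% of the 32851 promoter windows searched hold.
Pdgfc promoter, chr3:81036166-81036415, plus strand: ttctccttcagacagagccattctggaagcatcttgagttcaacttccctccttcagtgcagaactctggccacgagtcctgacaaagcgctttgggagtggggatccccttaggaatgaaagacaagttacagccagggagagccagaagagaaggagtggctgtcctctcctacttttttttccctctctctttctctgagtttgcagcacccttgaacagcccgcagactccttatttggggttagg
Gdf15 promoter, chr8:70632457-70632706, minus strand: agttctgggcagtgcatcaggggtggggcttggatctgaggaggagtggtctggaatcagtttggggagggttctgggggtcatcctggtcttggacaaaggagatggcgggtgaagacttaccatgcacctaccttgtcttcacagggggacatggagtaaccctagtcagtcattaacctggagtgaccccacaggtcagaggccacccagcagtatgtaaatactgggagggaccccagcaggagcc
Vegfb promoter, chr19:6987652-6987901, minus strand: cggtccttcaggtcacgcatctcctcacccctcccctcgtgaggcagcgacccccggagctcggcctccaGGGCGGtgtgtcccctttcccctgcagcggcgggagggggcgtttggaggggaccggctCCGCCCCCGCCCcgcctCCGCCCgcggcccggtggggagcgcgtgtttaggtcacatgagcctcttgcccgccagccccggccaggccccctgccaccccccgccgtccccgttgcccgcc
Tgfb1 promoter, chr7:25686752-25687001, plus strand: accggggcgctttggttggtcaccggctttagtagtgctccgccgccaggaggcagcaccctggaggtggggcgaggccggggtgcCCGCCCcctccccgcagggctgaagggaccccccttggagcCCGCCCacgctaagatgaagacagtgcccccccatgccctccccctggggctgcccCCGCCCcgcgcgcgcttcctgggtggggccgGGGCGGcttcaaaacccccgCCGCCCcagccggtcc

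The *Tgfb1* window holds 5 GC boxes and the *Vegfb* window 4, and their GC content is 75.2% and 76.4%. The *Gdf15* and *Pdgfc* windows hold none, at 56.4% and 50.8% GC. None of these 4 windows holds the cAMP response element TGACGTCA (in 1.55% of all windows), the AP-1 site TGANTCA (6.75%), the E-box CACGTG (6.02%), the ATF4 element TGATGNAA (3.45%), the PU.1 core GAGGAA (23.3%) or the TATA box TATAAA (12.4%), searched on both strands. Since the *Pdgfc* and *Gdf15* windows hold no motif of this search, it cannot decide whether the 7 genes lower in CD11c control share one. Windows of *Igf1* and *Pdgfa* and another of *Gdf15* start away from the GENCODE gene start and are not printed. Among these, *Igf1* has an AP-1 site, *Gdf15* an E-box and *Pdgfa* GC boxes, and each gene has a PU.1 core.

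Per kilobase of exon, the only scale on which levels of different genes are compared here, *Gdf15* had the highest mean in each group, from 74.7 ± 15.3 CPM per kb in CD11c control to 364 ± 92.8 CPM per kb in IAIE CGRP (SD, n = 3). In IAIE control *Tgfb1* (78.3 ± 9.94 CPM per kb) and *Osm* (77.0 ± 5.40 CPM per kb) came next with overlapping ranges, followed by *Hbegf* at 38.0 ± 3.18 CPM per kb. The other 5 genes lay between 6.19 and 15.2 CPM per kb in that group, in the order *Pdgfa*, *Vegfb*, *Igf1*, *Pdgfc*, *Pdgfb*, and the ranges of neighbours in that order overlapped. The ranges of *Gdf15* and *Tgfb1* overlapped in CD11c CGRP and in CD11c control (*Tgfb1* at 72.9 ± 2.12 CPM per kb), so that the order of these 2 is not settled there. In CD11c control *Osm* stood at 33.6 ± 6.02 CPM per kb, and *Igf1* came last at 2.04 ± 0.95 CPM per kb.

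CGRP raised *Osm* in both subsets, and it was the only one of the 9 genes that passed the test in both. *Osm* encodes oncostatin M. In IAIE control its levels were 182, 161 and 182 CPM in replicates 1, 2 and 3, and in IAIE CGRP 215, 272 and 327 CPM. In CD11c control they were 60.8, 86.5 and 81.7 CPM, and in CD11c CGRP 111, 126 and 136 CPM. Every CGRP library lay above every control library of its subset. The log2 change was 0.64 ± 0.16 (SE) in IAIE cells (1.55-fold, edgeR quasi-likelihood test, adjusted p = 0.0153) and 0.70 ± 0.17 in CD11c cells (1.62-fold, adjusted p = 0.00847). The difference between these changes was 0.06, with a 95% interval of -0.42 to 0.54 (edgeR interaction, adjusted p = 0.969). The call in IAIE cells was lost without IAIE control replicate 2 (adjusted p = 0.0569) or IAIE CGRP replicate 3 (adjusted p = 0.101), and that in CD11c cells without CD11c control replicate 1 (adjusted p = 0.0569) or CD11c CGRP replicate 3 (adjusted p = 0.0582).

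**Figure D1:**
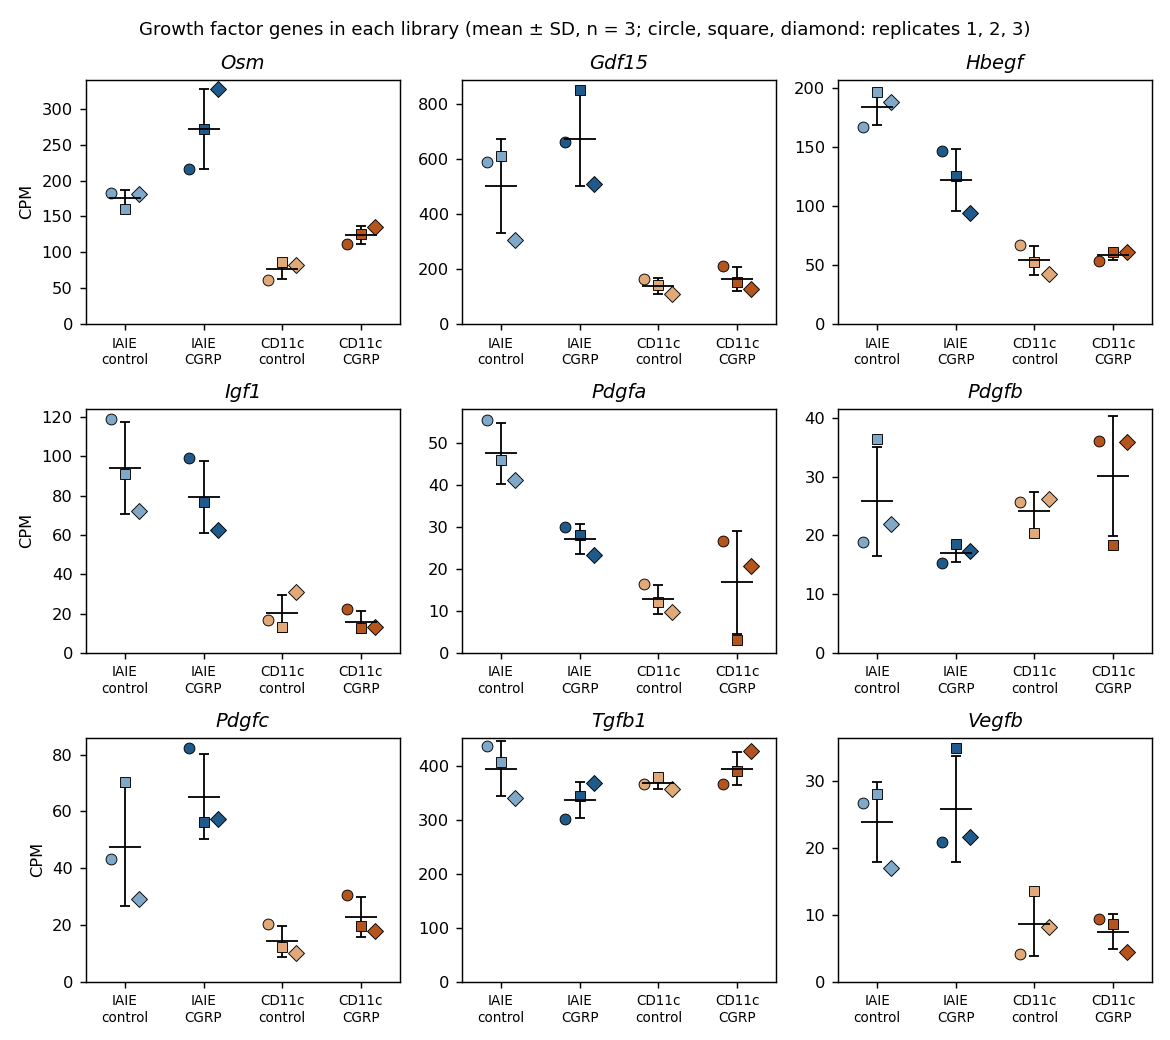
CPM of each gene (y axis) in the 12 libraries, by group (x axis), with the mean and SD over 3 libraries as bars and replicates 1, 2 and 3 as circles, squares and diamonds. CGRP libraries lie above the controls of their subset for *Osm* in both subsets, and CD11c libraries lie low for *Gdf15*, *Igf1* and *Hbegf*.

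*Hbegf* (chr18:36504927-36515805), which encodes the EGF receptor ligand HB-EGF, fell with CGRP in IAIE cells. Its levels there were 167, 196 and 188 CPM in control and 146, 125 and 93.9 CPM with CGRP, without overlap. In CD11c cells they were 66.5, 52.8 and 42.1 CPM in control and 53.7, 61.1 and 60.7 CPM with CGRP, with overlap. The log2 change was -0.60 ± 0.17 in IAIE cells (edgeR adjusted p = 0.0371) and 0.13 ± 0.18 in CD11c cells (adjusted p = 0.748). The interaction of 0.73 ± 0.25 was the closest to the threshold among the 9 genes and missed it (edgeR interaction, adjusted p = 0.362), so a difference between the subsets is not shown. Leaving out any of 6 libraries ended the IAIE call, with adjusted p-values between 0.0530 and 0.192. These libraries were IAIE control replicates 2 and 3, IAIE CGRP replicates 2 and 3, CD11c control replicate 2 and CD11c CGRP replicate 3.

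In all, 2 of the 9 genes passed the test for CGRP in IAIE cells, 1 higher and 1 lower, where 9.21% of all genes tested did so (5.32% higher and 3.89% lower). In CD11c cells 1 of 9 passed, higher, where 10.9% of genes did (6.29% higher). Groups did not overlap for 4 of the 9 genes in IAIE cells (24.9% of all genes) and for 1 in CD11c cells (29.2%). None of the 9 passed the interaction test, against 0.151% of all genes, or 18 genes, a count that was 36 with the replicate number as a block and 52 with treatment and replicate number together as a block, again with none of the 9. *Hbegf* and *Pdgfb* had an unadjusted interaction p under 0.05. DESeq2 and limma-voom also called none of the 9 there. The median log2 change of the 9 genes was -0.23 in IAIE cells and 0.24 in CD11c cells, against -0.02 and 0.00 over all genes tested.

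**Figure D2:**
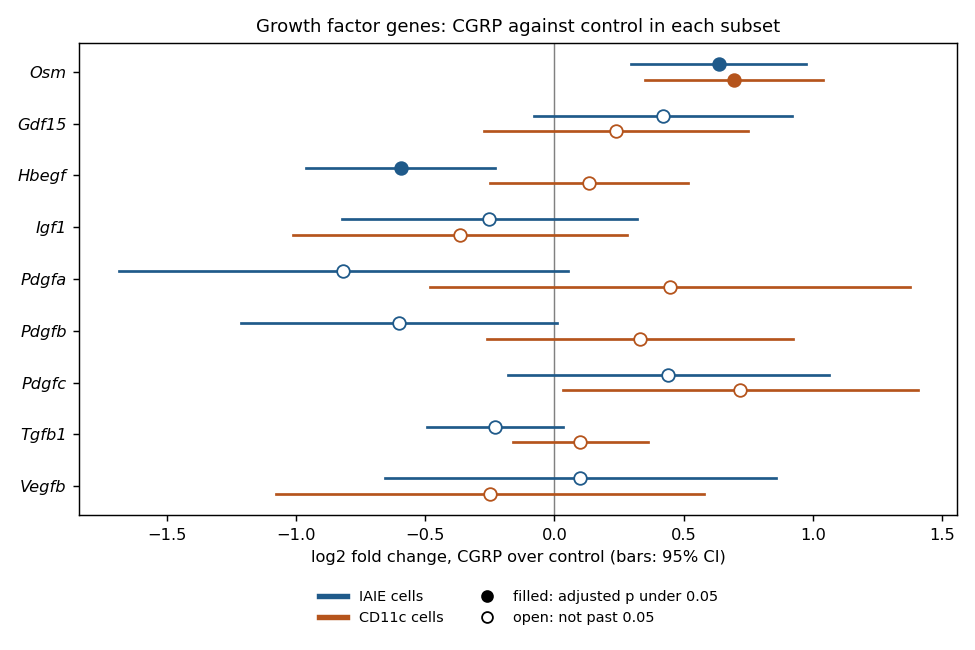
Log2 fold change of CGRP over control (x axis) for each gene in IAIE cells (blue) and CD11c cells (orange), with 95% intervals, filled where the edgeR adjusted p was under 0.05. Filled points stand at *Osm* in both subsets (0.64 and 0.70) and at *Hbegf* in IAIE cells (-0.60).

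The PDGF chains, which pair to form the ligands of the 2 PDGF receptors, did not pass the CGRP test in either subset. *Pdgfa* stood at 55.5, 45.9 and 41.2 CPM in IAIE control and 29.9, 28.2 and 23.2 CPM in IAIE CGRP. These groups did not overlap, yet the log2 difference of -0.82 ± 0.41 gave an edgeR adjusted p of 0.263. *Pdgfa* in CD11c cells was 16.3, 12.2 and 9.65 CPM in control and 26.7, 2.97 and 20.6 CPM with CGRP (log2 difference 0.45 ± 0.44, adjusted p = 0.632).

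CD11c CGRP replicate 2 stood apart for *Pdgfa*, with 12 counts where replicates 1 and 3 had 139 and 116. The gene on the opposite strand, *6330403L08Rik*, had 8 counts in that library and 25 and 46 in the others. The same library had the lowest summed mural markers of its group (56.4 against 369 and 199 CPM over 8 genes) and the lowest endothelial markers (10.4 against 90.0 and 105 CPM over 7 genes), and their part in the *Pdgfa* value was not tested. Without that library, *Pdgfa* passed the test as higher with CGRP in CD11c cells (log2 0.92, edgeR adjusted p = 0.0418) and lower in IAIE cells (log2 -0.81, adjusted p = 0.0342), and its interaction was 1.73 (adjusted p = 0.0487). In the joint fit of all groups, whether *Pdgfa* passed these 3 tests thus depended on this one library. That library is not part of the IAIE comparison and entered it only through the shared fit. In IAIE cells *Pdgfa* also passed when the compared libraries were fitted alone (log2 -0.82, edgeR adjusted p = 0.0191).

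*Pdgfb* followed a like order of values. It stood at 18.9, 36.4 and 21.9 CPM in IAIE control and 15.4, 18.5 and 17.4 CPM in IAIE CGRP, not overlapping (log2 difference -0.60 ± 0.29, edgeR adjusted p = 0.240). In CD11c cells it was 25.7, 20.3 and 26.2 CPM in control and 36.1, 18.3 and 35.9 CPM with CGRP (0.33 ± 0.28, adjusted p = 0.565). Replicate 2 of CD11c CGRP was again the low library, and the groups overlapped.

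*Pdgfc*, a chain that acts through the α receptor, had 43.1, 70.2 and 29.1 CPM in IAIE control and 82.3, 56.1 and 57.1 CPM with CGRP (log2 difference 0.44 ± 0.30, edgeR adjusted p = 0.426). In CD11c cells it had 20.4, 12.2 and 10.1 CPM in control and 30.7, 19.6 and 17.8 CPM with CGRP (0.72 ± 0.33, adjusted p = 0.196). The IAIE control library with the highest *Pdgfc*, replicate 2, also held the most collagen transcript, with 670 CPM of the fibroblast marker *Col1a1* against 35.1 and 91.8 CPM in replicates 1 and 3, and its part in the *Pdgfc* level was not tested.

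The make-up of the PDGF chains, as shares of their summed CPM per kb, differed between the groups. *Pdgfa* made up 57.8%, 39.5% and 54.6% of the 3 chains in IAIE control and was the largest share in each of these libraries. *Pdgfc* made up 54.9%, 45.0% and 49.2% in IAIE CGRP and was the largest share there, all above the 23.6% to 37.0% of IAIE control. *Pdgfb* was the largest share in each CD11c library, from 40.1% to 55.3% in control and from 37.3% to 47.9% with CGRP, against 12.5% to 23.5% over the 6 IAIE libraries. These shares are a description with no test.

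**Figure D3:**
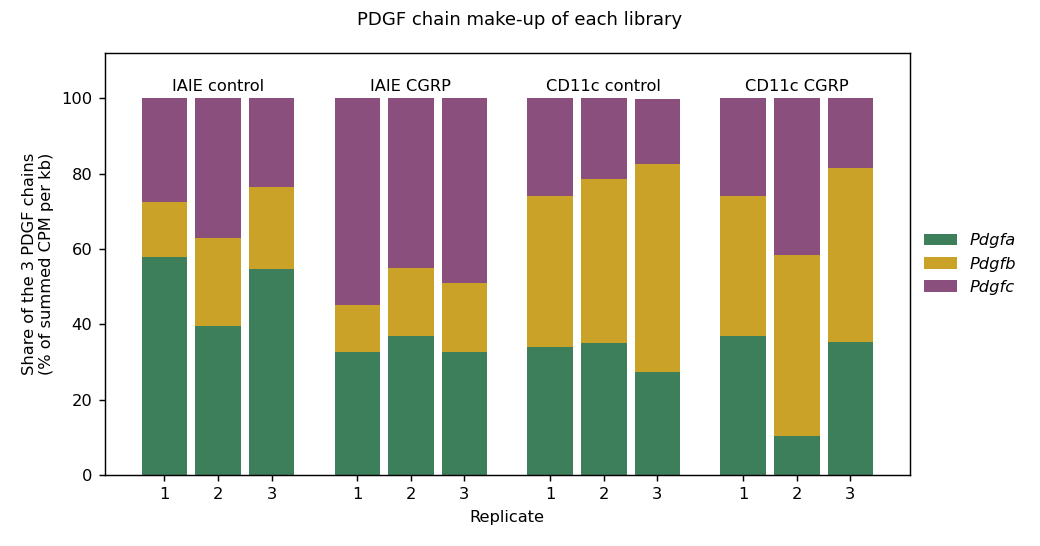
Share of *Pdgfa*, *Pdgfb* and *Pdgfc* (y axis, percent of their summed CPM per kb of exon) in each of the 12 libraries, by group and replicate (x axis). *Pdgfa* is the largest share in IAIE control, *Pdgfc* in IAIE CGRP and *Pdgfb* in the CD11c libraries, and *Pdgfa* falls to 10.4% in CD11c CGRP replicate 2.

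The other 4 genes missed the CGRP threshold in both subsets. *Gdf15*, a distant member of the TGF-β family that rises in stressed cells, had 590, 612 and 306 CPM in IAIE control and 661, 852 and 509 CPM in IAIE CGRP (log2 difference 0.42 ± 0.24, edgeR adjusted p = 0.326). In CD11c cells it had 164, 142 and 108 CPM in control and 210, 152 and 126 CPM with CGRP (0.24 ± 0.25, adjusted p = 0.645). Its groups overlapped in both subsets. It passed in IAIE cells when every gene with at least 1 count was kept (adjusted p = 0.0146).

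*Igf1*, the secreted growth factor that signals through IGF1R, had a log2 difference of -0.25 (95% interval -0.82 to 0.32) in IAIE cells and -0.36 (-1.01 to 0.28) in CD11c cells. *Tgfb1* had -0.23 (-0.49 to 0.03) and 0.10 (-0.16 to 0.36), the narrowest intervals among the 9 genes. *Vegfb*, a ligand of the receptor FLT1, had 0.10 (-0.66 to 0.86) and -0.25 (-1.08 to 0.58), wide enough to hold a change by more than 1.55-fold, the size seen for *Osm*.

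More of the 9 genes passed between the sorted subsets than between treatments. Of the 9 genes, 7 were lower in CD11c than in IAIE cells without CGRP, where 21.2% of all genes tested passed in either direction and 10.9% were lower. None of the 9 was higher. The same 7 were those whose groups did not overlap (17.5% of all genes were lower without overlap). With CGRP 6 of 9 were lower and did not overlap, where 16.9% of genes passed, 8.51% were lower and 17% were lower without overlap, and these 6 were among the 7. The median log2 difference of the 9 genes was -1.78 without CGRP and -1.13 with it, against -0.02 and 0.00 over all genes. The 2 comparisons use different libraries. General macrophage markers went the same way, 6 of 8 being lower in CD11c cells without CGRP and 5 of 8 with it, none higher. *Csf1r*, the receptor of macrophage colony-stimulating factor, stood at 1439 ± 145 CPM in IAIE control and 595 ± 67.3 CPM in CD11c control, and *Mrc1*, the mannose receptor, at 1992 ± 293 and 786 ± 90.6 CPM. Their part in the growth factor differences was not tested.

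*Igf1* showed the widest gap. It had 119, 91.2 and 72.1 CPM in IAIE control and 16.7, 13.1 and 30.9 CPM in CD11c control, then 99.0, 76.8 and 62.4 CPM in IAIE CGRP and 22.3, 12.4 and 12.99 CPM in CD11c CGRP. The lowest IAIE library, at 62.4 CPM, lay above the highest CD11c library, at 30.9 CPM. The log2 difference was -2.20 ± 0.30 without CGRP (edgeR adjusted p = 2.62e-05) and -2.31 ± 0.30 with it (adjusted p = 1.41e-05).

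*Gdf15* and *Hbegf* were also separated, with proportionally closer libraries. The lowest IAIE and highest CD11c libraries were at 306 and 210 CPM for *Gdf15* and at 93.9 and 66.5 CPM for *Hbegf*. For *Gdf15*, whose values are given above, the log2 difference was -1.87 ± 0.25 without CGRP (edgeR adjusted p = 2.24e-05) and -2.05 ± 0.25 with it (adjusted p = 7.41e-06). For *Hbegf* it was -1.78 ± 0.18 without CGRP (adjusted p = 1.20e-06) and -1.06 ± 0.18 with it (adjusted p = 0.000267). *Osm*, the gene that rose with CGRP in both subsets, stayed lower in CD11c cells under both conditions, by -1.19 ± 0.17 (adjusted p = 3.95e-05) and -1.13 ± 0.16 (adjusted p = 4.90e-05). CD11c cells with CGRP, at 111 to 136 CPM of *Osm*, thus remained under the 161 to 182 CPM of IAIE cells without it.

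*Vegfb* was low throughout, at 26.7, 28.1 and 17.0 CPM in IAIE control and 4.08, 13.6 and 8.15 CPM in CD11c control. With CGRP it had 20.9, 35.0 and 21.7 CPM in IAIE cells and 9.40, 8.66 and 4.45 CPM in CD11c cells. The subsets did not overlap in either condition, with log2 differences of -1.44 ± 0.39 (edgeR adjusted p = 0.0108) and -1.79 ± 0.38 (adjusted p = 0.00222). The first was lost without CD11c control replicate 3 (adjusted p = 0.0523).

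Among the PDGF chains, *Pdgfc* was lower in CD11c cells by -1.80 ± 0.33 without CGRP (edgeR adjusted p = 0.000505) and -1.52 ± 0.30 with it (adjusted p = 0.00132). *Pdgfa* was lower by -1.93 ± 0.44 without CGRP (adjusted p = 0.00372), while with CGRP the difference of -0.67 ± 0.42 did not pass (adjusted p = 0.335). *Pdgfb* was the exception. Its log2 difference was -0.11 (95% interval -0.72 to 0.50) without CGRP and 0.82 (0.23 to 1.42) with it. The latter was just outside the threshold (edgeR adjusted p = 0.0555). It was inside the threshold in 9 of 23 alternative fits, and over all 23 the adjusted p ran from 0.0116 to 0.225.

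*Tgfb1* was level across the sort. It had 437, 407 and 339 CPM in IAIE control and 366, 379 and 357 CPM in CD11c control, and 301, 343 and 367 CPM in IAIE CGRP and 365, 390 and 426 CPM in CD11c CGRP. All 12 libraries lay between 301 and 437 CPM. The log2 difference was -0.10 (95% interval -0.37 to 0.16) without CGRP and 0.23 (-0.04 to 0.49) with it, so that these intervals do not hold a change of the size seen for the 7 lower genes.

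**Figure D4:**
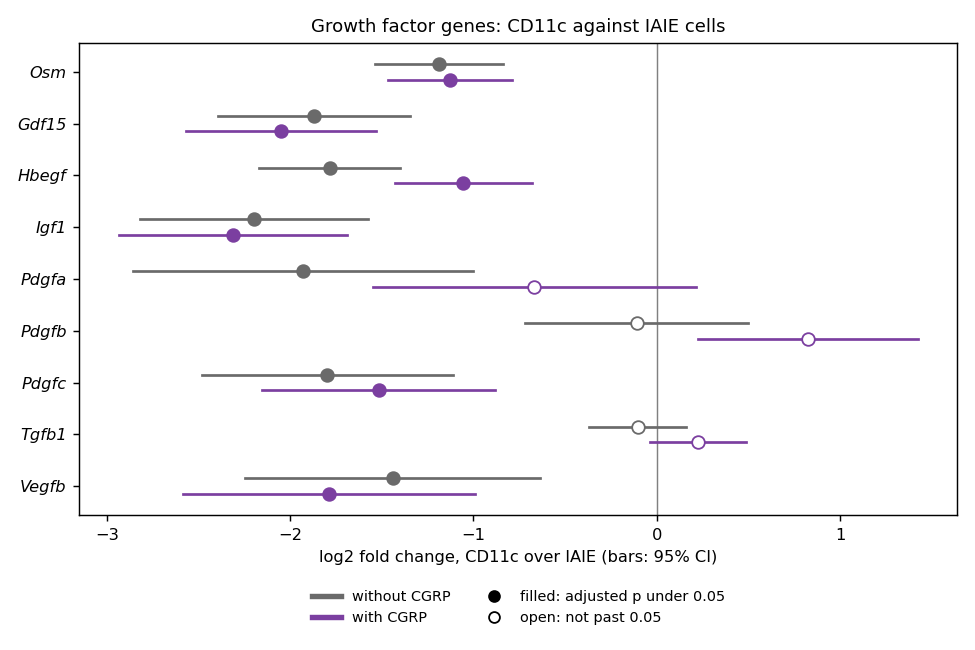
Log2 fold change of CD11c over IAIE cells (x axis) for each gene without CGRP (grey) and with CGRP (purple), with 95% intervals, filled where the edgeR adjusted p was under 0.05. The points of 6 genes are filled and lie left of 0 in both conditions, whereas *Tgfb1* and *Pdgfb* lie near 0 without CGRP.

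Markers of some other cells moved with the same comparisons. Lining macrophage markers (7 genes, among them *Cx3cr1*, *Lyve1* and *Vsig4*) summed to 636 to 983 CPM in IAIE libraries and 283 to 535 CPM in CD11c libraries. *Lyve1* made up much of these sums, with means of 484 CPM in IAIE control and 137 CPM in CD11c control. *Timd4* went the other way (37.7 and 94.4 CPM), while every other member had the lower mean in CD11c control. With CGRP, *Timd4* and *Sparc* had the higher mean in CD11c cells, and the other members the lower. Fibroblast markers summed to 360 to 1560 CPM in IAIE control, 570 to 2210 CPM in IAIE CGRP, 207 to 278 CPM in CD11c control and 462 to 770 CPM in CD11c CGRP. These sums rest largely on *Pdpn*, podoplanin, at 176 ± 13.9 CPM in IAIE control and 578 ± 58.1 CPM in IAIE CGRP, and in IAIE CGRP replicate 1 on *Prg4*, lubricin, at 1433 CPM. The collagen marker *Col1a1* had the lower mean with CGRP, 266 ± 351 and 32.5 ± 18.8 CPM. Of 7 fibroblast markers tested in IAIE cells 1 was higher and 3 were lower with CGRP, where 5.32% and 3.89% of all genes were. *Pdgfra*, *Lum* and *Fbln1* were at or under the floor in CD11c control. In CD11c cells with CGRP, 3 of 7 fibroblast markers and 6 of 7 mural markers tested had risen, where 6.29% of all genes had. The mural genes *Acta2* and *Myh11* were at 0 CPM in CD11c CGRP replicate 2. B cell markers (6 genes) summed to 166 to 277 CPM in IAIE control and 76 to 122 CPM in IAIE CGRP. Their sums were 35.5 to 54.7 CPM in CD11c control and 6.76 to 16.1 CPM in CD11c CGRP. In CD11c cells 5 of 6 were lower without CGRP and 6 of 6 with it, where 10.9% and 8.51% of all genes were lower. Platelet markers summed to 3.43 to 17.5 CPM in control and 35.5 to 70.3 CPM in CGRP libraries, the latter mostly *Ppbp*, a chemokine gene, while *Itga2b* and *Gp9* stayed at or under 5.45 CPM. Neutrophil markers (7 genes) overlapped between groups but varied widely, at 4.92 to 289 CPM in IAIE control and 54.8 to 207 CPM in IAIE CGRP. In CD11c libraries they summed to 0 to 398 CPM in control and 9.01 to 190 CPM with CGRP. Mast cell markers (6 genes) lay between 0.729 and 141 CPM, with overlap between groups. The part of all these cells in the growth factor values was not tested. In sorted bulk samples, fewer cells of a type and less RNA per cell cannot be told apart.

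**Figure D5:**
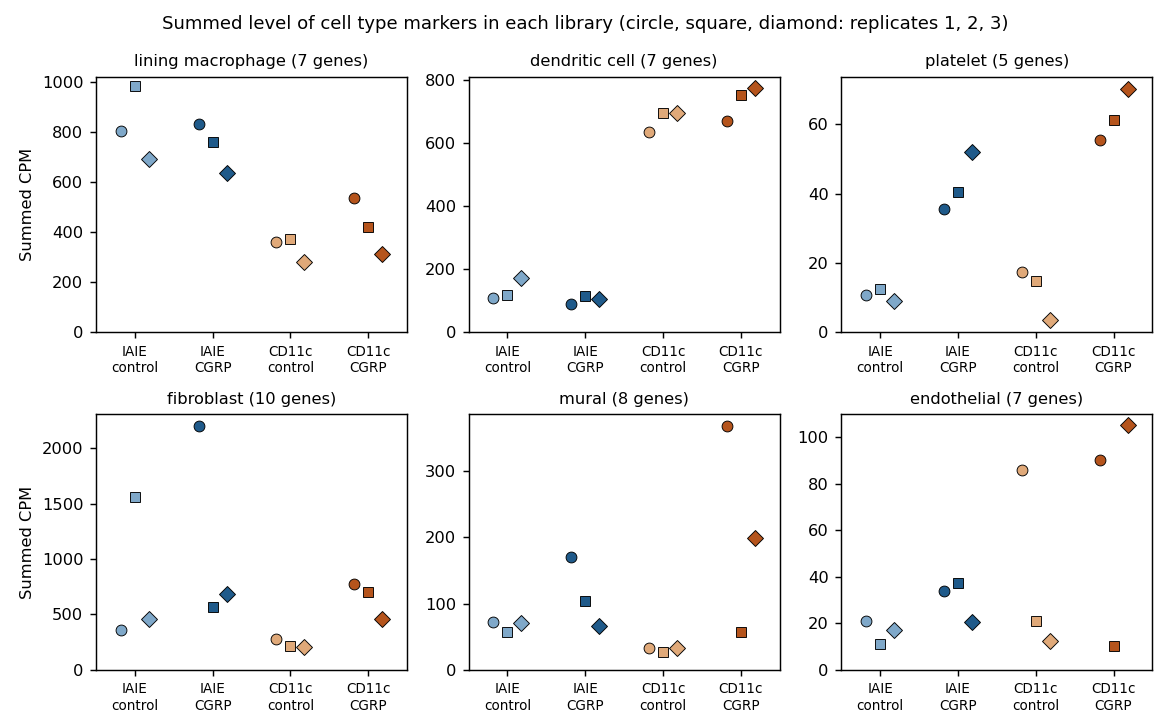
Summed CPM of cell type markers (y axis, one panel per list) in the 12 libraries, by group (x axis), with replicates 1, 2 and 3 as circles, squares and diamonds. Sums of dendritic cell markers are high and sums of lining macrophage markers low in CD11c libraries, though not every member follows its sum. Fibroblast markers reach 1562 and 2206 CPM in single IAIE libraries, and CD11c CGRP replicate 2 (square) is low for mural and endothelial markers.

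Receptors of these ligands were read from the same cells. Of 23 listed receptor genes 22 were in the files and 18 were tested, and *Gfral*, the receptor of GDF15, was not among those in the files. Without CGRP 7 receptors were lower and 3 higher in CD11c than in IAIE cells (median log2 difference -0.72), where 21.2% of all genes passed and 10.9% were lower. *Egfr*, the receptor of HB-EGF, stood at 61.2 ± 12.7 CPM in IAIE control and 17.8 ± 7.27 CPM in CD11c control (log2 -1.77 ± 0.27, edgeR adjusted p = 8.42e-05), so the ligand and its receptor were both lower in CD11c cells. *Tgfbr2* differed in the same direction (204 ± 34.4 and 67.7 ± 10.7 CPM, log2 -1.59 ± 0.25, adjusted p = 0.000106), although *Tgfb1* itself did not pass. *Flt1*, the receptor of VEGF-B, ran opposite to *Vegfb*, with 3.40 ± 1.34 CPM in control libraries of IAIE cells and 24.3 ± 17.0 CPM in those of CD11c cells (log2 2.81 ± 0.61, adjusted p = 0.00237). The CD11c control library with the most *Flt1*, replicate 1, also held the most of the endothelial marker *Cdh5*. *Cdh5* stood there at 45.7 CPM, against 0.234 and 2.79 CPM in replicates 2 and 3, and its bearing on *Flt1* was not tested.

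*Acvrl1*, a type I receptor of the TGF-β family, and *Igf2r*, which clears IGF2, were also higher in CD11c control, by 0.96 ± 0.18 (edgeR adjusted p = 0.000600) and 0.72 ± 0.20 (adjusted p = 0.0142, but 0.0767 without IAIE control replicate 1). *Pdgfra*, the receptor of PDGF-AA and PDGF-CC and a fibroblast marker, was at 3.72, 9.46 and 1.79 CPM in IAIE control and at or under the floor in CD11c control, at least 5.83-fold lower. It lost that call without IAIE control replicate 2 (adjusted p = 0.0539), the library with the highest fibroblast sum of its group, and without CD11c control replicate 3 (adjusted p = 0.0501).

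Of the 18 receptors tested, 1 was higher and 1 lower with CGRP in IAIE cells (9.21% of all genes passed) and 3 were higher and 1 lower in CD11c cells (10.9% of all genes), with a median log2 change of -0.32 and -0.11. The 4 calls in CD11c cells were 2 without CD11c control replicate 2 or CD11c CGRP replicate 2. *Lifr*, the receptor of LIF, fell in both subsets. In IAIE cells it fell from 141 ± 20.4 to 74.4 ± 11.1 CPM (log2 -0.92 ± 0.17, edgeR adjusted p = 0.00167). In CD11c cells it fell from 119 ± 27.5 to 51.9 ± 2.79 CPM (-1.19 ± 0.18, adjusted p = 0.000120). *Acvrl1* rose in both, by 0.90 ± 0.18 (adjusted p = 0.00232) and 0.60 ± 0.17 (adjusted p = 0.0265). *Egfr* rose in CD11c cells by 0.98 ± 0.27 (adjusted p = 0.0197), and so did *Nrp1*, a co-receptor for VEGF and other ligands, by 0.64 ± 0.15 (adjusted p = 0.00767). *Osmr*, the specific receptor chain of oncostatin M, was low, at 0.701 to 16.4 CPM over the 12 libraries, and *Il6st*, its shared gp130 chain, was present at 224 to 316 CPM. Neither passed the CGRP test. In CD11c cells *Egfr* lost its call without control replicates 1 or 3 or CGRP replicate 1 (adjusted p from 0.0874 to 0.127), *Nrp1* without replicate 2 of either group (adjusted p = 0.0558 and 0.0563), and *Acvrl1* without control replicates 2 or 3 or any CGRP replicate (adjusted p from 0.0599 to 0.157).

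Other growth factor ligands, from a list of 34 genes of which 18 were tested, gave 2 higher and none lower with CGRP in IAIE cells, and 4 higher and none lower in CD11c cells (median log2 change 0.59 and 0.65). Of all genes 5.32% and 6.29% were higher there. *Inhba*, the activin A subunit, stood at 80.9 ± 63.3 and 286 ± 42.6 CPM in IAIE control and CGRP (log2 1.85 ± 0.35, edgeR adjusted p = 0.00185) and at 203 ± 67.6 and 624 ± 67.5 CPM in CD11c cells (1.61 ± 0.34, adjusted p = 0.00322). *Pgf*, placental growth factor of the VEGF family, rose by 2.04 ± 0.31 (adjusted p = 0.000288) and 1.29 ± 0.29 (adjusted p = 0.00550).

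*Lif*, the closest relative of *Osm* on this list, rose in CD11c cells from 2.98 ± 1.58 to 16.6 ± 11.8 CPM (log2 2.41 ± 0.64, edgeR adjusted p = 0.0175) with overlapping groups. That call was lost when any of CD11c control replicates 1 and 2 or CD11c CGRP replicate 1 was left out (adjusted p from 0.0685 to 0.116). Between subsets without CGRP, *Gas6*, *Bmp2* and *Grn* were lower in CD11c cells (log2 -2.01 ± 0.31, -1.86 ± 0.34 and -1.09 ± 0.13), and *Il6* and *Inhba* were higher (1.38 ± 0.28 and 1.36 ± 0.35), the adjusted p-values lying between 6.28e-06 and 0.00881. *Inhba* missed that threshold without IAIE control replicate 2 (adjusted p = 0.0505).

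Genes that release, bind or present these ligands gave 4 higher and 2 lower with CGRP in IAIE cells and 9 higher and none lower in CD11c cells, of 22 tested from a list of 30 (median log2 change -0.25 and 0.70), where 9.21% and 10.9% of all genes passed. The 6 calls in IAIE cells were 3 without IAIE control replicate 1, and the 9 in CD11c cells were 5 without CD11c control replicate 3. *Itgb8*, the β8 integrin that frees TGF-β1 from its latent form, rose from 1.42 ± 0.84 to 6.36 ± 5.02 CPM in IAIE cells (log2 2.18 ± 0.58, edgeR adjusted p = 0.0209). In CD11c cells it rose from 33.2 ± 1.62 to 121 ± 37.6 CPM (1.86 ± 0.33, adjusted p = 0.000697). *Thbs1*, thrombospondin 1, another activator of latent TGF-β1, rose by 0.92 ± 0.25 (adjusted p = 0.0210) and 1.60 ± 0.25 (adjusted p = 0.000210). *Cd9*, a tetraspanin that associates with membrane-bound HB-EGF, rose by 1.05 ± 0.19 (adjusted p = 0.000963) and 0.86 ± 0.17 (adjusted p = 0.00198). *Tgfb1* itself did not pass in either subset. In IAIE cells *Itgb8* lost its call without IAIE control replicates 1 or 3 or IAIE CGRP replicate 3 (adjusted p from 0.0553 to 0.194), and *Thbs1* without IAIE control replicate 1 (adjusted p = 0.0858) or IAIE CGRP replicate 3 (adjusted p = 0.150).

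*Nrros*, which tethers latent TGF-β1 on myeloid cells, fell in IAIE cells by 0.61 on the log2 scale (edgeR adjusted p = 0.00812), and *Ltbp3*, a latent TGF-β binding protein, by 2.05 (adjusted p = 0.00260). The *Nrros* call was lost without IAIE control replicate 1 (adjusted p = 0.0521), and the *Ltbp3* call when counts were thinned to the lowest library total (adjusted p = 0.0590). Among the genes of this list past the threshold, the largest rises in CD11c cells were those of *Ltbp2* (log2 4.66 ± 1.13), *Igfbp7* (4.12 ± 0.90) and *Igfbp6* (2.61 ± 0.79), matrix and IGF-binding proteins of stromal cells. Their CD11c control counts were 0, 10 and 0, then 10, 0 and 0, and 0, 15 and 10, so these sizes rest on a base near the floor. They reached 22.5 ± 25.8, 18.2 ± 3.94 and 12.6 ± 11.2 CPM in CD11c CGRP. Fibroblast and mural marker sums were also higher there than in CD11c control, and their part was not tested. *Ltbp2* and *Igfbp7* were highest in replicate 2 (51.5 and 22.5 CPM), the library with the lowest mural sum of its group. *Ltbp2* lost its call without CD11c CGRP replicate 2 (adjusted p = 0.174) or CD11c control replicate 3 (adjusted p = 0.0519), and *Igfbp6* without CD11c control replicates 1 or 3 or CD11c CGRP replicates 1 or 2 (adjusted p from 0.0573 to 0.313). Without CGRP, *Itgb8* was 22.5-fold higher in CD11c than in IAIE cells (edgeR adjusted p = 3.26e-06). That fold rests on 2, 8 and 3 counts in IAIE control, near the floor. *Plat* was 7.75-fold higher in CD11c cells (adjusted p = 0.000635). *Rhbdf1*, which assists the shedding of EGF receptor ligands, differed by -2.29 ± 0.44 on the log2 scale (adjusted p = 0.000938). *Cd9* was 3.43-fold higher, and the IGF-binding proteins *Igfbp5* and *Igfbp7* differed by -3.14 ± 0.87 and -2.80 ± 0.93 (adjusted p = 0.0136 and 0.0380). *Igfbp5* lost that call without IAIE control replicate 3 or CD11c control replicate 2 (adjusted p = 0.0523 and 0.0577). *Igfbp7* lost it without IAIE control replicate 2, CD11c control replicates 2 or 3 or CD11c CGRP replicate 3 (adjusted p from 0.0557 to 0.202).

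Genes known to respond to these factors changed in both directions with CGRP, and their counts are read against the 9.21% of all genes that passed in IAIE cells and the 10.9% in CD11c cells. Of 10 genes listed as STAT3 targets for oncostatin M, some of which answer other signals too, 1 was higher and 2 were lower with CGRP in IAIE cells. In CD11c cells 1 was higher and 1 lower (median log2 change -0.14 and -0.05). *Socs1*, a feedback inhibitor of cytokine signals, rose by 1.40 ± 0.30 (edgeR adjusted p = 0.00484) and 1.16 ± 0.29 (adjusted p = 0.0129), and *Bcl3* fell by 0.58 (adjusted p = 0.0115) and 0.44 (adjusted p = 0.0485). *Stat3* fell by 0.43 in IAIE cells (adjusted p = 0.0273), a call lost without IAIE control replicates 1 or 2 or IAIE CGRP replicates 2 or 3 (adjusted p from 0.0539 to 0.141). *Socs3*, the best known STAT3 target and named outside the rule for naming genes, had log2 differences of 0.21 ± 0.12 and -0.04 ± 0.12 (adjusted p = 0.323 and 0.909). The targets that passed did not share a direction. Leaving out IAIE control replicate 2 ended the *Bcl3* call in IAIE cells (adjusted p = 0.0839), 11 of 22 alternative fits ended it in CD11c cells, and *Socs1* lost its call in CD11c cells without control or CGRP replicates 1 or 2 (adjusted p from 0.0542 to 0.0828).

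Of 12 TGF-β response genes, 1 was lower in IAIE cells (*Klf10*, log2 -0.75 ± 0.17, edgeR adjusted p = 0.00701) and 2 were higher in CD11c cells, among them *Pmepa1* (1.16 ± 0.21, adjusted p = 0.000758). *Klf10* missed the threshold without IAIE control or IAIE CGRP replicate 2 (adjusted p = 0.0603 and 0.0573), and the median log2 change was -0.15 and -0.03 in the subsets. Of 12 tested targets of ERK signalling (median 0.12 and 0.61), *Ier3* rose in both subsets (0.58 ± 0.12, adjusted p = 0.00271, and 0.92 ± 0.12, adjusted p = 2.90e-05), and *Egr1* fell in IAIE cells from 515 ± 103 to 273 ± 16.9 CPM (-0.92 ± 0.18, adjusted p = 0.00250), the subset in which *Hbegf* fell. Of 10 integrated stress response genes, a pathway that induces *Gdf15* (median 0.09 and 0.27), *Asns* rose in both subsets (1.16 ± 0.29, adjusted p = 0.0155, and 1.08 ± 0.28, adjusted p = 0.0180) and *Trib3* in IAIE cells (1.03 ± 0.27, adjusted p = 0.0182). *Asns* lost its call in IAIE cells without control replicates 1 or 2 or CGRP replicate 2 (adjusted p from 0.0501 to 0.105) and in CD11c cells without control replicate 2 or CGRP replicate 1 (adjusted p = 0.109 and 0.103), and *Trib3* without IAIE control replicate 2 or IAIE CGRP replicate 1 (adjusted p = 0.0842 and 0.0656).

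Between the subsets without CGRP, response genes differed both ways, where 21.2% of all genes passed and 10.9% were lower. Of the 12 TGF-β response genes 4 were lower in CD11c cells, among them *Pmepa1* (log2 -1.18 ± 0.21) and *Ski* (-0.71 ± 0.14), and *Skil* was higher (0.45 ± 0.12). Of the genes listed as STAT3 targets 3 were higher and none lower, *Cish* (2.08 ± 0.19), *Timp1* (1.78 ± 0.23) and *Pim1* (0.37 ± 0.11). *Osm* was lower there, and whether these genes followed oncostatin M in these cells was not tested. Of the ERK targets *Dusp6* (-1.67 ± 0.31), *Egr1* (-1.24 ± 0.18) and *Ier3* (-0.90 ± 0.12) were lower and *Dusp5* (1.08 ± 0.13) was higher. Of the integrated stress response genes *Ddit4* (1.51 ± 0.45) and *Trib3* (1.49 ± 0.27) were higher, whereas *Atf3* (-0.78 ± 0.17) and *Ppp1r15a* (-0.49 ± 0.13) were lower, as *Gdf15* was. The edgeR adjusted p-values of the genes named here lay between 3.18e-07 and 0.0244.

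Some of these differences turned on 1 library. *Pim1* missed the threshold without CD11c control replicate 1 or IAIE control replicate 3 (edgeR adjusted p = 0.0894 and 0.0919). *Ddit4* missed it without replicate 2 of either control group (adjusted p = 0.0623 for that of CD11c cells, and higher for that of IAIE cells). *Ppp1r15a* missed it without IAIE control replicate 1 or CD11c control replicates 1 or 3 (adjusted p from 0.0529 to 0.0901).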

How the data were processed

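Per the labels and the methods of the study, the authors trimmed reads with Trim Galore, checked them with FastQC, mapped them with HISAT2 (genome build mm10) and summed them over genes with featureCounts. Versions, annotation and strand setting are not given in the sources used here. The deposited values are unnormalised counts of reads over genes for each of the 12 libraries, from a stranded total RNA kit, and 6 further columns of a combined table that no label maps to a sample were not used. Genes were kept with filterByExpr (minimum count 10, minimum total 15) and TMM-scaled. All 12 libraries entered 1 quasi-likelihood fit in edgeR (version 4.0.16, R 4.3.3) with a mean per group and 5 two-sided contrasts, adjusted by Benjamini-Hochberg over all genes tested with a threshold of 0.05. All adjusted p-values are from this fit unless another tool is named. The interaction is the CGRP effect in CD11c cells minus that in IAIE cells. Errors are SD for levels and SE for log2 changes, and folds against groups at or under 3 counts in every library are bounds against 3 counts per library. The tests were checked on simulated counts.

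Alternatives were RLE and upper-quartile scaling, other filters, DESeq2 (1.42.0), limma-voom (limma 3.58.1), 1 surrogate variable (sva 3.50.0), a replicate block, a fit of only the compared libraries, thinning and leaving out each library. The 9 genes, the gene lists and the tests were chosen with earlier results of these data known. The text names, from each list and in each direction, the 3 genes past the threshold that changed most, apart from some that are not reported here. Deviations from group means (5411 genes of at least 20 CPM) gave correlations of 0.332, 0.128 and 0.205 for replicates 1, 2 and 3 between IAIE CGRP and CD11c CGRP. All exceed 0.1. The fit kept no block, and fits blocked by number, or by treatment and number together, were run as alternatives. The labels do not say whether cells of equal treatment and number shared an explant. No other 2 groups had every correlation above 0.1, and the labels name no batch.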

Additional observations from a re-analysis of the deposited data

Results flagged for a closer look

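*Nrp1*, the co-receptor gene, was lower in every IAIE CGRP library (158, 154 and 153 CPM) than in every IAIE control library (214, 161 and 163 CPM), and higher in every CD11c CGRP library (135, 190 and 168 CPM) than in every CD11c control library (109, 99.6 and 109 CPM). The groups did not overlap in either subset, and the differences ran in opposite directions, but that in IAIE cells, -0.21 ± 0.15 on the log2 scale, did not pass (edgeR adjusted p = 0.445). The difference of the CGRP effects was 0.85 ± 0.21 on the log2 scale and missed the threshold (edgeR interaction, adjusted p = 0.140).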

How the results depend on the processing

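Up to 22 or 23 alternative fits were run for each gene and comparison. The lower levels of *Igf1*, *Gdf15*, *Hbegf*, *Osm* and *Pdgfc* in CD11c cells passed the threshold in all of them, with and without CGRP. The replicate block changed no call of the 9 genes. For *Pdgfb* between subsets with CGRP, the block by treatment and number gave 0.77 (edgeR adjusted p = 0.0869). Counts of the 9 genes past the threshold ranged, when single libraries were left out, from 0 to 3 for CGRP in IAIE cells, from 0 to 2 in CD11c cells and from 0 to 1 for the interaction, and thinning to the lowest library total left 0 in CD11c cells. Over all genes, calls in IAIE cells fell to 722 without IAIE CGRP replicate 2 (722 to 1122 over all libraries left out in turn, 1099 with none left out). Interaction calls, 18 with all libraries, were 171 with every gene of at least 1 count and 5 with at least 10 counts in every library. They were 36 with the replicate block and 52 with the block by treatment and number. With 1 surrogate variable they were 38, with DESeq2 97 and with limma-voom 2. When libraries were left out, they ranged from 6 to 29.

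Directions turned only for values that had not passed the threshold. Without single libraries, log2 values ranged from -0.17 to 0.26 for *Vegfb* in IAIE cells. In CD11c cells they ranged from -0.728 to 0.094 for *Igf1*, -0.067 to 0.922 for *Pdgfa*, -0.044 to 0.299 for *Hbegf*, -0.023 to 0.372 for *Gdf15* and -0.54 to 0.19 for *Vegfb*. For the interaction they ranged from -0.50 to 0.33 for *Igf1*, -0.15 to 0.58 for *Pdgfc*, -0.10 to 0.21 for *Osm*, -0.460 to 0.042 for *Gdf15* and -0.650 to 0.068 for *Vegfb*, and between subsets without CGRP from -0.29 to 0.25 for *Pdgfb*. *Tgfb1* in CD11c cells was -0.002 after thinning, *Vegfb* there 0.015 with 1 surrogate variable, and the *Osm* interaction -0.02 with every gene of at least 1 count and -0.039 after thinning. Of the 9 genes, outside the leave-outs and values given beside the results, *Osm* in CD11c cells missed the threshold after thinning (adjusted p = 0.0584), and *Pdgfa* in IAIE cells passed with the compared libraries alone (adjusted p = 0.0191). Of the other named genes, calls were also lost with limma-voom for *Lif*, *Ltbp2*, *Igfbp6* and *Igfbp5*, and for *Itgb8*, *Asns* and *Trib3* in IAIE cells (adjusted p from 0.0547 to 0.460), with DESeq2 for *Ltbp2* and for *Igfbp7* between subsets (0.0934 and 0.167), after thinning for *Igfbp6*, *Igfbp7* between subsets, *Stat3*, *Ddit4* and *Asns* in CD11c cells (0.0514 to 0.141), with the compared libraries alone for *Igfbp6*, *Igfbp7* between subsets, *Stat3* and *Trib3* (0.0542 to 0.0856), for *Stat3* with every gene of at least 1 count (0.162), for *Pim1* with 1 surrogate variable (0.0522), and for *Igfbp6* under the replicate block (2.26, adjusted p = 0.0604). The cause was not tested.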

Other observations

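The genes whose level followed each growth factor most closely were taken by Pearson correlation of log2(CPM + 1) over the 12 libraries, among the 8437 tested genes that averaged 5 CPM or more. These correlations are a description, since the libraries share 4 groups that differ in level. *Osm* was followed by *Mcl1*, a survival gene of the BCL2 family (r = 0.98), *Ednrb*, an endothelin receptor (0.97), and *Eaf1* (0.97). *Gdf15* was followed by *Tcn2*, a vitamin B12 carrier (0.98), *Atp6v1a*, a subunit of the vacuolar proton pump (0.98), and *Ankrd33b* (0.98). *Igf1* was followed by *Rcn3*, *Ano6* and *Jun* (0.97 to 0.98), *Hbegf* by *Lamtor3*, *Cd33* and *Washc2* (0.97 each), *Pdgfc* by *Zdhhc14*, *Hgsnat* and *Pf4* (0.95 to 0.97) and *Vegfb* by *Cd300c2*, *Cipc* and *Dgkz* (0.95 to 0.96). *Pdgfa* was followed by *Ang*, *Ablim1* and *Aldh7a1* (0.93 to 0.95). The genes closest to *Tgfb1* (*Atmin*, *Cct8* and *F5*, 0.77 to 0.87) and *Pdgfb* (*Krcc1*, *Map3k3* and *Nrbp1*, 0.83 to 0.87) had lower correlations.

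Among the 9 genes themselves, *Gdf15* and *Pdgfc* had the highest correlation over the 12 libraries (r = 0.94), followed by *Igf1* and *Gdf15* (0.89) and *Gdf15* and *Vegfb* (0.89). *Tgfb1* and *Pdgfb* correlated at 0.44 with each other. *Pdgfb* lay between -0.45 and -0.24 with *Igf1*, *Hbegf*, *Osm*, *Gdf15*, *Pdgfc* and *Vegfb*, and at 0.14 with *Pdgfa*.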
